A study of Homo sapiens with 9 samples.

Results

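Cytokines are secreted messengers of the immune system. The genes described here are 14 interleukins and other ligands, 1 soluble antagonist, 23 receptor chains and the 4 Janus kinases. These kinases carry the signal of many of the receptors, though not of all, into the cell. The 42 genes were chosen by name, from a list of interleukin, interferon receptor, growth factor receptor and Janus kinase symbols. No threshold on their values was used, but earlier results of these data were known when they were chosen. Counts of members called are therefore described beside all genes, with no test of the set. All 42 were found among the 59050 genes of the table, and 36 of them were among the 13463 genes with a CPM above 1 (counts scaled to a common library size) in at least 3 samples, the limit for testing.

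The study asked how growth in a bioprinted hydrogel alters the transcriptome of MEC1, an established human line derived from chronic lymphocytic leukemia, a B cell malignancy. Bulk RNA was sequenced from 3 samples in ordinary 2D culture, 3 from 3D scaffolds at day 7 and 3 from 3D scaffolds at day 14. The labels give no time in culture for the 2D cells and do not say whether the replicates were separate cultures, so the spread behind each p-value may be technical. RNA came from a column kit in 2D and from TRIzol, DNase and then the column in 3D, so extraction and culture cannot be told apart in a comparison with 2D.

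A cytokine binds the outer parts of paired receptor chains, and most chains described here have no enzyme of their own. For many of these chains, Janus kinases held on the inner parts then phosphorylate each other and the receptor, which recruits STAT transcription factors. Chains are shared: the common gamma chain IL2RG serves the receptors for IL-2, IL-4, IL-7, IL-15 and IL-21 and works through JAK3, while gp130, encoded by IL6ST, serves those for IL-6 and IL-27. In chronic lymphocytic leukemia, cytokines such as IL-4, IL-10 and IL-21 are studied as signals from the surroundings that alter survival and division.

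The total counts per sample were 57152440, 85968686 and 68208856 in 2D, 58272630, 56649465 and 54810673 at day 7, and 61246772, 56632405 and 54662799 at day 14. The 42 genes together took between 0.276% and 0.403% of the counts of a sample, both ends of that range being day 14 samples. Day 14 replicate 1, at the low end, stood apart from the other day 14 samples for several genes described here, among them IL10, IL2RA, IL2RB, JAK1 and JAK3. Ribosomal protein genes took 4.10% to 4.82% of counts in 2D, 1.66% to 1.82% at day 7 and 1.88% to 3.27% at day 14 (3.27% in day 14 replicate 1). Mitochondrial genes took 2.30% to 2.83%, 1.44% to 1.64% and 1.62% to 2.82% in the same order. Immunoglobulin genes took 1.25% to 1.31%, 4.47% to 5.24% and 4.998% to 7.14%. The part of these shifts in the results was not tested.

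Markers placed the cells with B cells: 9 of 9 B cell markers passed the low count limit, with MS4A1, the gene of CD20, the most abundant at 785 to 880 CPM in 2D, 1375 to 1666 at day 7 and 892 to 1228 at day 14. The B cell list summed to 3391 to 3429, 3866 to 4479 and 4638 to 5337 CPM, higher in each later group with no overlap. The sum does not describe each marker: of the 9, 1 rose and 1 fell at day 7, and 4 rose and 1 fell at day 14. Over all genes 22.2% rose and 21.2% fell at day 7, and 19% and 17.2% at day 14, which also holds beside the lists that follow here. For T cells 2 of 9 passed, with TRAC the most abundant, and CD3D and CD3G had 3 counts or fewer in every sample; the summed level was 601 to 657 CPM in 2D, 701 to 739 at day 7 and 781 to 1098 at day 14. For natural killer cells 4 of 6 passed and the defining receptor gene NCR1 had 3 counts or fewer in every sample. The granule protein gene GNLY made up most of that list's sum, at 11.5 to 14.4 CPM in 2D, 88.2 to 126 at day 7 and 208 to 407 at day 14, highest in day 14 replicate 1. The whole natural killer list summed to 14.9 to 18.1, 92.5 to 129 and 216 to 418 CPM. Of its 4 tested genes, 2 rose and 1 fell at day 7, and 2 rose and 0 fell at day 14. Of the monocyte or macrophage markers 1 of 9 passed (ITGAM, at 0.938 to 1.76 CPM in 2D, 0.173 to 1.66 at day 7 and 3.12 to 4.76 at day 14), with every day 14 sample above all others. Of the same list LYZ, CD68 and S100A8 were at 3 counts or fewer in every sample, and the whole list summed to at most 5.25 CPM. Among fibroblast or stroma markers 3 of 7 passed, led by VIM, with no gene at the floor. Their sums were 474 to 540 CPM in 2D, 398 to 472 at day 7 and 402 to 664 at day 14. Of the 3 tested, 2 fell at day 7 and 0 were called at day 14 against 2D. All 6 plasma cell markers passed, led by XBP1. Their sums were 1405 to 1419 CPM in 2D, 1523 to 1685 at day 7 and 1277 to 1398 at day 14. Of the 6, 2 rose and 2 fell at day 7, and 1 rose and 2 fell at day 14. The part of any of these lists in the results was not tested, and in bulk RNA fewer cells of a type cannot be told apart from less RNA per cell.

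At day 7 RNA was higher than in 2D for the kinases JAK1, JAK3 and TYK2, for the secreted IL-18 inhibitor IL18BP, for the ligands IL10 and IL16 and for the receptor chains IL12RB1, IL2RA, TGFBR2, IL10RA, IL17RA, IL27RA and IL2RG. It was lower for the ligand chains IL7 and EBI3 and for the receptor chains IL7R, IL6ST, EPOR, IFNGR2, IFNAR1 and IFNGR1. At day 14 IL10 and IL18BP were again higher than in 2D, IL10 by more than at day 7, while JAK1 was the 1 Janus kinase that passed the test. Both comparisons use the same 2D samples, so their members' values are given side by side and not as separate evidence.

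Of the 36 genes tested, 13 rose and 8 fell from 2D to day 7 at an adjusted p of at most 0.05, against 22.2% of all genes rising and 21.2% falling (43.4% in either direction, 5838 genes). From 2D to day 14, 11 rose and 8 fell, against 19% and 17.2% of all genes (36.2% either way, 4875 genes). The 8 include IL23A, whose fall follows in part from the filter, as given with its values below. From day 7 to day 14, 3 rose and 3 fell, against 14.5% and 13.6% (28.1% either way, 3785 genes). The median log2 fold change of the 36 was 0.14, 0.08 and 0.06 in that order, beside 0.00, 0.02 and 0.00 for all genes tested. The medians of the 36 became -0.02 at day 7 and -0.12 at day 14 when samples were scaled by total counts alone, a scaling that moved the median of all genes by -0.16 and -0.20. With that scaling 2157 of all genes rose and 3575 fell at day 7 (2985 and 2853 with TMM), and 1604 rose and 3246 fell at day 14 (2557 and 2318 with TMM). So the members moved both ways, and the balance of up and down depended on the scaling, for members and for all genes. The number falling at day 14 was 5 without 2D replicate 2, and the number of all genes called was 3204 without 2D replicate 3. Between the days, 6 members rose without day 14 replicate 1 and 6 fell without day 14 replicate 2, and the genes called were 2291 without day 7 replicate 2 and 2417 without day 7 replicate 3. The median between the days was 0.14 without day 7 replicate 1, 0.21 without day 14 replicate 1 and -0.02 without day 14 replicate 2, and with all samples 0.15 with the length trend removed and 0.14 with the replicate block and the trend removed. The median of day 14 against 2D was 0.26 without day 14 replicate 1. With 3 samples on each side, the smallest p of an exact permutation test is 0.1, so single genes were tested in a model fitted across all genes. That fit shares the spread over all 9 samples, while replicates differed most at day 14. The mean chi-square per gene between replicates was 28.4 to 54.1 in 2D, 22.5 to 81.9 at day 7 and 154.8 to 305.5 at day 14. With only the 6 samples compared, 3800 genes rose and 3897 fell at day 7, and 2125 and 2191 at day 14. The numbers called thus also depend on which samples share the fit.

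With all samples, IL10 had the largest fold changes against 2D among the 10 ligands tested. Without day 7 replicate 2 the day 7 change of IL23A was larger (log2 fold change -1.74, beside 1.44 for IL10). IL10 encodes a cytokine that restrains inflammatory responses and that B cells can secrete, and lies at chr1:206767602-206774541 on the minus strand of GRCh38. IL10 stood at 6.66, 7.83 and 6.62 CPM in 2D, 16.4, 24.1 and 22.6 at day 7, and 47.0, 27.7 and 33.2 at day 14. Every day 7 sample was above every 2D sample, and every day 14 sample was above every day 7 sample, with day 14 replicate 1 the highest. In edgeR's quasi-likelihood test, adjusted by Benjamini and Hochberg's method over all tested genes, the log2 fold change was 1.58 at day 7 (SE 0.223, edgeR adjusted p = 0.00017) and 2.35 at day 14 (SE 0.228, edgeR adjusted p = 2.06e-05), which was 2.12 without day 14 replicate 1.

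IL7, at chr8:78732772-78805523, encodes a growth factor for early lymphocytes that is made mainly by stromal cells. Its level was 17.8, 21.7 and 20.2 CPM in 2D, 11.3, 9.03 and 7.58 at day 7, and 10.7, 13.1 and 17.1 at day 14. All 6 scaffold samples lay below all 2D samples, though day 14 replicate 3 came close to the lowest 2D value. IL7 fell at day 7, with a log2 fold change of -1.09 (SE 0.218, edgeR adjusted p = 0.00159). At day 14 the value was -0.54 and missed the threshold (SE 0.216, edgeR adjusted p = 0.0652, between 0.022 and 0.164 over the alternatives), and it passed without day 7 replicate 1 (-0.56) or day 14 replicate 3 (-0.74), with total counts alone (-0.73) and in DESeq2's Wald test (-0.54).

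IL23A, at chr12:56338884-56340410, encodes the p19 chain that pairs with the IL12B product to form IL-23. It had 1.497, 2.48 and 1.78 CPM in 2D, 0.449, 1.91 and 0.721 at day 7, and 0.610, 0.436 and 0.628 at day 14. The day 14 samples were all below 2D, while day 7 replicate 2 lay inside the 2D range. IL23A passed the filter through the 2D samples and day 7 replicate 2, with all day 14 samples under 1 CPM, so a lower day 14 value follows in part from the filter. IL23A fell at day 14, with a log2 fold change of -1.78 (SE 0.525, edgeR adjusted p = 0.0187), a call that ended without 2D replicate 2 (-1.58) or day 14 replicate 2 (-1.63). The day 7 value was -0.90 (SE 0.507, edgeR adjusted p = 0.167), and without day 7 replicate 2 it was -1.74 and passed the threshold (edgeR adjusted p = 0.0181, between 0.0181 and 0.411 over the alternatives), while without day 7 replicate 1 it was -0.57.

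IL12A, the p35 chain of IL-12 and IL-35, fell at day 14. Its mean was 7.36 ± 0.331 CPM (SD, n = 3) in 2D, 5.70 ± 0.0792 at day 7 and 3.86 ± 0.790 at day 14, with log2 fold changes of -0.37 and -0.93. EBI3, the other chain of IL-35 and a chain of IL-27, fell at both times, from 194 ± 15.2 CPM to 114 ± 10.8 and 105 ± 8.29, with log2 fold changes of -0.77 and -0.88. IL16, whose product attracts cells that carry CD4, rose at both times, from 536 ± 25.4 CPM to 761 ± 33.1 and 849 ± 149, with log2 fold changes of 0.51 and 0.66, and shares 46.0% of its exon bases with AC103858.1 and STARD5, which had at most 29 and 180 counts. The day 7 call of IL16 ended without 2D replicate 1 (0.48), 2D replicate 2 (0.49), 2D replicate 3 (0.42) or day 7 replicate 3 (0.43), with total counts alone (0.35) and with no filter (0.50). IL15, a cytokine that sustains natural killer and memory T cells, rose at day 14 (0.66) from 8.25 ± 0.501 to 13.0 ± 1.03 CPM, with 9.01 ± 2.74 at day 7 (0.13, and 0.26 without day 7 replicate 1, -0.18 without day 7 replicate 2, 0.07 without 2D replicate 1 and 0.05 without 2D replicate 2). Its day 14 call ended without 2D replicate 1 (0.62), 2 (0.59) or 3 (0.67), without day 14 replicate 2 (0.65) or 3 (0.61), with total counts alone (0.46) and with no filter (0.60). The other ligands tested passed in neither comparison with 2D with all samples and the settings used throughout. TGFB1, which encodes a cytokine that limits lymphocyte growth, had means of 61.6 ± 13.5, 69.4 ± 4.83 and 82.3 ± 16.5 CPM (log2 fold changes 0.17 and 0.42, but -0.05 and 0.21 without 2D replicate 3, 0.10 at day 7 without day 7 replicate 2 and 0.24 at day 14 without day 14 replicate 2). CSF1, the macrophage growth factor, had 44.5 ± 5.35, 36.8 ± 3.89 and 44.4 ± 6.14 CPM (-0.27 and 0.00, but -0.42 and -0.13 without 2D replicate 3), and it passed at day 7 with the length trend removed (-0.41) and with the replicate block and the trend removed (-0.41). IL24, a cytokine of the IL-10 family, had 1.72 ± 0.322, 1.20 ± 0.111 and 2.17 ± 0.0141 CPM (-0.51 and 0.34, the latter 0.15 without 2D replicate 2). Of its exon bases 41.6% are shared with FCMR, a gene with up to 52905 counts. FCMR averaged 559, 432 and 735 CPM, also lowest at day 7 and highest at day 14. The part of FCMR reads in the IL24 values was not tested.

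For the ligands under the testing limit, counts are given sample by sample. IL1B, a fever-inducing cytokine, had 58, 123 and 60 counts in 2D, 4, 2 and 2 at day 7, and 0, 12 and 4 at day 14. In CPM every 2D sample (0.787 to 1.32) was above every scaffold sample (at most 0.228). Fitted with no filter on low counts, IL1B passed as lower than 2D at day 7 (edgeR adjusted p = 4.97e-05) and at day 14 (edgeR adjusted p = 0.00172). No size is given for the fall, since all but 1 of the scaffold samples had 4 counts or fewer, about the floor of 3, where a fitted fold change depends on the count added to each value. IL18, an inducer of interferon gamma, had 6, 18 and 23 counts in 2D, 19, 8 and 15 at day 7, and 0, 20 and 19 at day 14, so the groups overlapped. IL6 had at most 1 count and LIF at most 3 in any sample, which is at the floor of 3 counts (0.0323 to 0.0569 CPM, counting error only), and no difference was detectable at this depth.

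The soluble antagonist IL18BP encodes a secreted protein that binds IL-18 and keeps it from its receptor, and the gene lies at chr11:71998541-72003753. Its level was 34.2, 32.6 and 31.2 CPM in 2D, 143, 120 and 107 at day 7, and 144, 120 and 130 at day 14. All 6 scaffold samples were far above the 2D samples and the 2 days overlapped. IL18BP rose by a log2 fold change of 1.92 at day 7 (SE 0.15, edgeR adjusted p = 4.45e-06) and 2.00 at day 14 (SE 0.15, edgeR adjusted p = 5.96e-06). With NUMA1 it shares 16.3% of its exon bases, and NUMA1 itself stood at 78.5, 87.4 and 72.1 CPM on average.

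Of 6 tested genes for the common gamma chain and its partners, 2 rose and 1 fell at day 7, and 3 rose and 1 fell at day 14 (all genes: 22.2% up and 21.2% down at day 7, 19% and 17.2% at day 14). IL2RA, at chr10:6010689-6062325 on the minus strand, encodes CD25, the chain that gives the IL-2 receptor its high affinity. It stood at 1.61, 2.95 and 1.495 CPM in 2D, 6.09, 6.83 and 7.57 at day 7, and 1.90, 6.83 and 7.73 at day 14. All day 7 samples and day 14 replicates 2 and 3 were above 2D, and day 14 replicate 1 lay inside the 2D range. The log2 fold change was 1.75 at day 7 (SE 0.444, edgeR adjusted p = 0.00691) and 1.44 at day 14 (SE 0.442, edgeR adjusted p = 0.0228). The day 14 call ended without 2D replicate 1 (1.27), 2D replicate 3 (1.22), day 14 replicate 2 (1.25) or day 14 replicate 3 (1.11), with total counts alone (1.27) and with only the 6 samples compared (1.42).

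IL7R, at chr5:35856891-35879603, encodes the alpha chain of the IL-7 receptor. It had 8.24, 7.64 and 9.85 CPM in 2D, 2.54, 2.64 and 3.36 at day 7, and 2.20, 1.94 and 3.07 at day 14. Each scaffold sample was below each 2D sample, and the days overlapped. IL7R fell, with log2 fold changes of -1.59 at day 7 (SE 0.266, edgeR adjusted p = 0.000511) and -1.84 at day 14 (SE 0.268, edgeR adjusted p = 0.0003), so at day 7 both the ligand IL7 and this chain were below 2D.

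IL2RG, the common gamma chain, rose at both times, from 78.4 ± 6.25 CPM in 2D to 111 ± 5.34 and 134 ± 19.8, with log2 fold changes of 0.50 and 0.78. Of its exon bases 62.3% lie in AL590764.2 too, a gene model with at most 18 counts in a sample. Its day 7 call ended without 2D replicate 1 (0.50), 2D replicate 2 (0.49), 2D replicate 3 (0.38), day 7 replicate 1 (0.45) or day 7 replicate 2 (0.47), with total counts alone (0.35) and with no filter (0.50). IL2RB, the beta chain of the IL-2 and IL-15 receptors, rose at day 14 (0.59), with 577 ± 26.8, 711 ± 106 and 868 ± 270 CPM and 0.30 at day 7, a value that passed with only the 6 samples compared (0.28) and was 0.15 without day 7 replicate 1. Day 14 replicate 1 stood at 557 CPM, inside the 2D range, and the other day 14 samples at 995 and 1050. The day 14 call of IL2RB was among the least stable, ending in 13 of 18 alternatives. These were the omission of 2D replicate 1 (0.55), 2 (0.59) or 3 (0.52), of day 7 replicate 1 (0.57), 2 (0.56) or 3 (0.56), and of day 14 replicate 2 (0.48) or 3 (0.43). The others were total counts alone (0.40), filterByExpr (0.58), no filter (0.53), only the 6 samples compared (0.57) and the replicate block (0.57). IL21R, the receptor chain for IL-21, had 109 ± 2.05, 132 ± 11.2 and 100 ± 3.65 CPM (0.27 and -0.12), and IL4R, which binds IL-4, had 42.7 ± 6.72, 34.6 ± 2.00 and 37.0 ± 6.46 CPM (-0.30 and -0.21), and neither passed. Without day 7 replicate 2 the day 7 value of IL21R was 0.17. Without 2D replicate 1 the values of IL4R were -0.47 and -0.36, and without day 14 replicate 1 that of day 14 was -0.07. At day 7 IL21R passed without day 14 replicate 1 (0.26) and with only the 6 samples compared (0.26), and IL4R with the length trend removed (-0.44) and with the replicate block and the trend removed (-0.43). IL13RA1, the chain that joins IL4R to bind IL-13, was under the testing limit with 32, 24 and 41 counts in 2D, 82, 55 and 20 at day 7, and 25, 24 and 18 at day 14, with overlapping groups in CPM.

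Of the 3 tested genes for gp130 and IL-12 receptor chains, 2 rose and 1 fell at day 7, and 1 rose and 1 fell at day 14 (all genes: 22.2% up and 21.2% down at day 7, 19% and 17.2% at day 14). IL6ST, at chr5:55935095-55994964 on the minus strand, had 36.8, 45.2 and 50 CPM in 2D, 21.6, 16.4 and 20.1 at day 7, and 18.4, 24.7 and 39.4 at day 14. The day 7 samples were all below 2D, and day 14 replicate 3 lay inside the 2D range. IL6ST fell by a log2 fold change of -1.19 at day 7 (SE 0.248, edgeR adjusted p = 0.00214) and -0.68 at day 14 (SE 0.245, edgeR adjusted p = 0.0457). The day 14 call ended without 2D replicate 2 (-0.69), 2D replicate 3 (-0.61), day 7 replicate 1 (-0.70), day 7 replicate 3 (-0.70), day 14 replicate 1 (-0.45) or day 14 replicate 2 (-0.61), with filterByExpr (-0.69) and with only the 6 samples compared (-0.70), and the value was -1.03 without day 14 replicate 3. IL6R, the chain that binds IL-6 itself, was under the testing limit with 4, 47 and 18 counts in 2D, 23, 1 and 8 at day 7, and 49, 0 and 16 at day 14, and its groups overlapped.

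IL12RB1, at chr19:18058995-18098944 on the minus strand, encodes the chain shared by the IL-12 and IL-23 receptors. Its level was 14.2, 14.6 and 13.4 CPM in 2D, 53.3, 39.6 and 39.0 at day 7, and 45.6, 46.5 and 34.0 at day 14. All 6 scaffold samples were above 2D, with the days overlapping. IL12RB1 rose by a log2 fold change of 1.64 at day 7 (SE 0.181, edgeR adjusted p = 3.21e-05) and 1.58 at day 14 (SE 0.181, edgeR adjusted p = 5.92e-05). IL27RA, which pairs with gp130 to bind IL-27, rose at day 7 (0.56), from 50.8 ± 3.60 to 74.6 ± 3.45 CPM, and stood at 49.0 ± 8.21 at day 14 (-0.05, and -0.19 without day 14 replicate 2). The day 7 call ended without 2D replicate 2 (0.51) or 2D replicate 3 (0.45) and with total counts alone (0.40).

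Of 6 other receptor chains tested, 2 rose and 1 fell at day 7, and 1 rose at day 14 (all genes: 22.2% up and 21.2% down at day 7, 19% and 17.2% at day 14). EPOR, at chr19:11377207-11384314 on the minus strand, encodes the receptor for the red cell hormone erythropoietin, which uses JAK2. It had 21.3, 19.5 and 18.0 CPM in 2D, 6.56, 7.76 and 10.4 at day 7, and 11.9, 17.2 and 11.8 at day 14. The 3 groups did not overlap, with day 14 between day 7 and 2D. EPOR fell at day 7 by a log2 fold change of -1.25 (SE 0.222, edgeR adjusted p = 0.000741), and at day 14 the value was -0.52 and missed the threshold (SE 0.218, edgeR adjusted p = 0.078, between 0.0213 and 0.187 over the alternatives), though it passed without day 14 replicate 2 (-0.72), with total counts alone (-0.73), with the length trend removed (-0.58) and with the replicate block and the trend removed (-0.60).

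TGFBR2, at chr3:30606502-30694142, encodes the chain that binds TGF-beta. It had 1.22, 2.63 and 0.866 CPM in 2D, 7.68, 4.68 and 3.05 at day 7, and 1.92, 3.53 and 3.07 at day 14. The day 7 samples were above 2D, with day 7 replicate 1 the highest, and the day 14 samples overlapped 2D. TGFBR2 rose at day 7 by a log2 fold change of 1.70 (SE 0.457, edgeR adjusted p = 0.00955), a call that ended without day 7 replicate 1 (1.27). At day 14 the value was 0.85 (SE 0.452, edgeR adjusted p = 0.161), and it was 1.41 without 2D replicate 2, which passed the threshold, and 0.52 without 2D replicate 3.

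IL17RA, a receptor chain for IL-17, rose at both times, from 40.5 ± 4.06 CPM to 60.8 ± 5.93 and 69.3 ± 12.4, with log2 fold changes of 0.59 and 0.78. The day 7 call ended without 2D replicate 1 (0.46) or day 7 replicate 2 (0.48) and with total counts alone (0.43). The remaining chains of this kind passed in neither comparison. TGFBR1, the kinase that TGFBR2 activates, had 9.17 ± 0.128, 8.85 ± 1.76 and 8.85 ± 3.15 CPM (-0.05 and -0.05), with a day 7 value of -0.21 without day 7 replicate 1 and day 14 values of 0.22 without day 14 replicate 1 and -0.21 without day 14 replicate 3. CSF2RB, the chain shared by the receptors for IL-3, IL-5 and GM-CSF, had 9.45 ± 1.16, 9.78 ± 3.92 and 7.41 ± 1.85 CPM (0.05 and -0.35), with day 7 values of -0.34 without day 7 replicate 1 and 0.22 without day 7 replicate 2, and day 14 values of -0.21 without day 14 replicate 1 and -0.57 without day 14 replicate 3. IL1RAP, the accessory chain of the IL-1 receptor, had 1.99 ± 0.240, 2.22 ± 0.252 and 1.56 ± 0.270 CPM (0.15 and -0.35), with day 7 values of 0.08 without 2D replicate 1, 0.03 without 2D replicate 3 and 0.04 without day 7 replicate 1.

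Of the 6 type II receptor chains, which serve IL-10 and the interferons, 1 rose and 3 fell at each time (all genes: 22.2% up and 21.2% down at day 7, 19% and 17.2% at day 14). IFNGR2, at chr21:33402896-33437521, encodes the signalling chain of the interferon gamma receptor. It had 226, 224 and 180 CPM in 2D, 70.6, 77.4 and 99.3 at day 7, and 134, 163 and 123 at day 14. The groups did not overlap, and day 14 lay between day 7 and 2D. IFNGR2 fell by a log2 fold change of -1.35 at day 7 (SE 0.173, edgeR adjusted p = 8.59e-05) and -0.58 at day 14 (SE 0.17, edgeR adjusted p = 0.0176). The day 14 call ended without 2D replicate 1 (-0.56), 2D replicate 2 (-0.57) or day 14 replicate 3 (-0.50).

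IFNGR1, the chain that binds interferon gamma, fell from 169 ± 4.26 CPM to 109 ± 12.5 and 110 ± 9.35, with log2 fold changes of -0.64 and -0.61. IFNAR1, a chain of the type I interferon receptor, fell from 93.7 ± 3.46 CPM to 56.9 ± 5.27 and 58.4 ± 9.86, with -0.72 and -0.68. IFNAR2, its partner, had 5.27 ± 0.207, 5.72 ± 0.689 and 6.44 ± 0.898 CPM (0.12 and 0.29) and did not pass, with day 7 values of 0.04 without 2D replicate 1 and 0.01 without day 7 replicate 1 and a day 14 value of 0.17 without day 14 replicate 3. IL10RA, the chain that binds IL-10, rose from 68.2 ± 4.96 CPM to 116 ± 10.5 and 111 ± 20.1, with 0.77 and 0.71, so ligand and binding chain were both above 2D. IL10RB, the chain shared by IL-10 and related receptors, had 2.95 ± 0.499, 2.23 ± 0.0860 and 2.89 ± 0.880 CPM (-0.40 and -0.03) and did not pass, with a day 14 value of -0.30 without day 14 replicate 3 and 0.10 without day 14 replicate 2. IFNAR2, IL10RB, IFNAR1 and IFNGR2 are neighbours in that order on chromosome 21, and of these IFNAR1 and IFNGR2 passed the test. IL10RB shares 89.2% of its exon bases with AP000295.1, a gene model with 0 counts in every sample. IFNAR2 shares 88.2% with AP000295.1 and IL10RB-DT together, the latter at 0.464, 0.928 and 0.970 CPM on average, and how reads in shared exons were assigned is not stated.

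**Figure D1:**
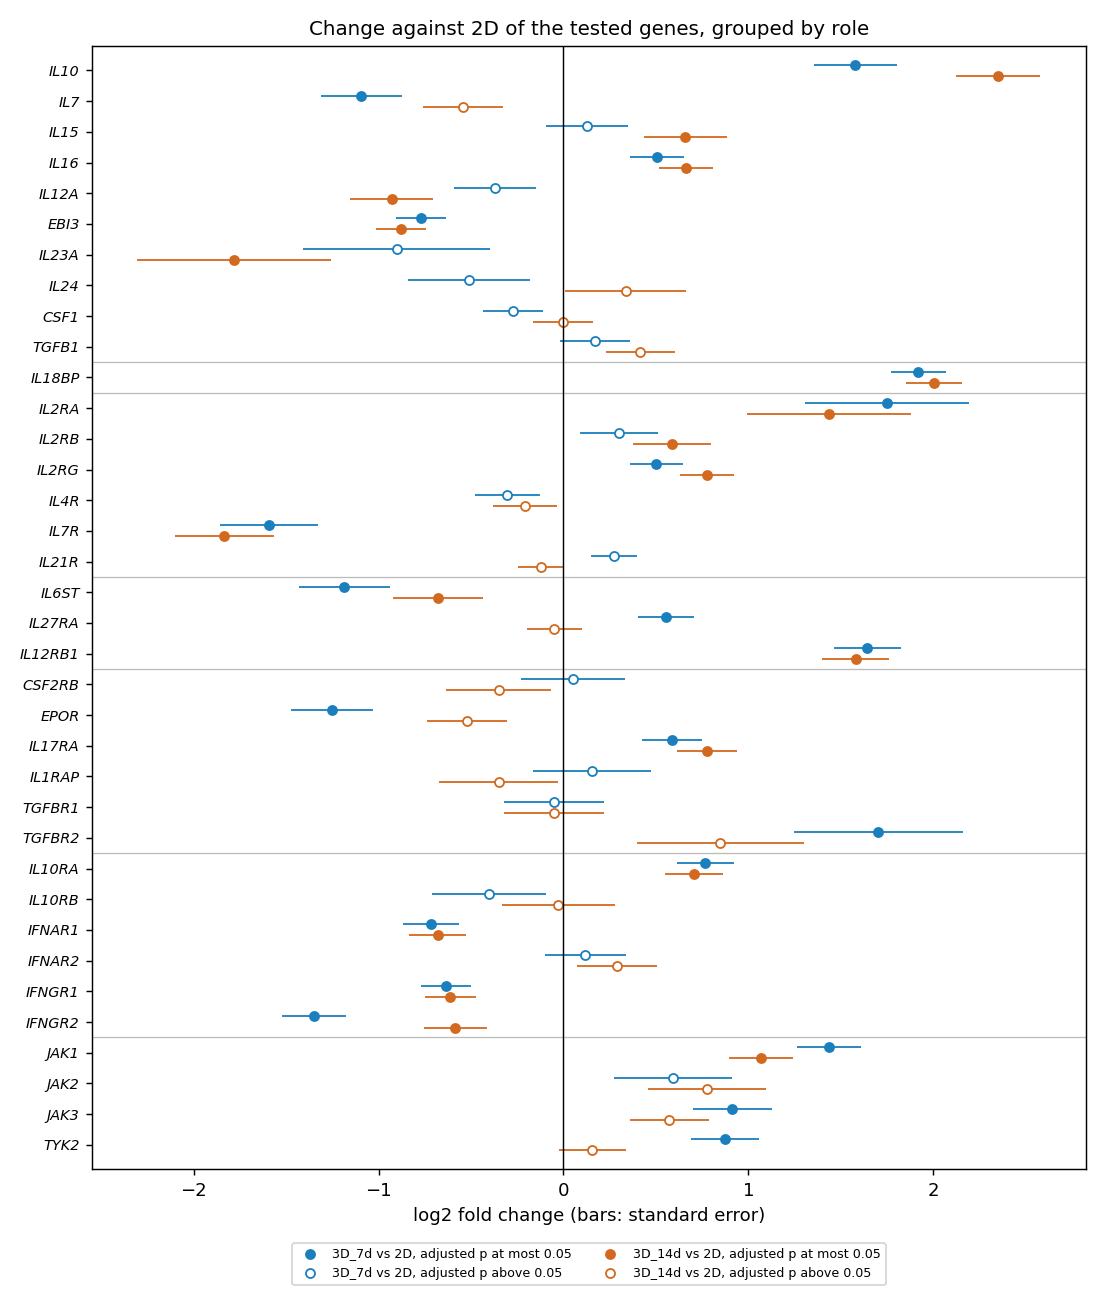
Log2 fold change with its SE of each tested gene, grouped by role, at day 7 and day 14 against the same 3 2D samples, with filled points past an adjusted p of 0.05. IL18BP, IL10, IL2RA, IL12RB1 and JAK1 lie above 1 at both times and IL7R lies below -1 at both.

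Of the 4 Janus kinases, 3 rose at day 7 and 1 at day 14 (22.2% and 19% of all genes rose), and the value of TYK2 at day 14 turned negative with total counts alone (-0.05). JAK1, at chr1:64833229-64966549 on the minus strand, encodes a kinase used by receptors with the common gamma chain, gp130 and all interferon receptors. Its level was 177, 187 and 169 CPM in 2D, 482, 464 and 496 at day 7, and 272, 456 and 391 at day 14. The groups did not overlap, with day 7 highest, and day 14 replicate 1 lay well under the other day 14 samples. JAK1 rose by a log2 fold change of 1.44 at day 7 (SE 0.175, edgeR adjusted p = 6.02e-05) and 1.07 at day 14 (SE 0.173, edgeR adjusted p = 0.00057).

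JAK2, at chr9:4985245-5128183, serves the receptors for erythropoietin, GM-CSF and interferon gamma. It had 9.42, 8.13 and 13.3 CPM in 2D, 16.6, 15.9 and 14.0 at day 7, and 12.8, 11.1 and 28.9 at day 14. Day 7 lay just above 2D, and day 14 overlapped it, with day 14 replicate 3 far above the rest. JAK2 did not pass, with log2 fold changes of 0.59 (SE 0.319, edgeR adjusted p = 0.151, between 0.0231 and 0.42 over the alternatives) and 0.78 (SE 0.32, edgeR adjusted p = 0.0746, between 0.0271 and 0.478). It passed at day 7 without day 14 replicate 3 (0.59) and with only the 6 samples compared (0.57). At day 14 it passed without day 14 replicate 1 (0.97) or 2 (1.02), with no filter (0.70), in DESeq2's Wald test (0.78), with the length trend removed (0.82) and with the replicate block and the trend removed (0.76), while the value was 0.22 without day 14 replicate 3.

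JAK3, at chr19:17824786-17848032 on the minus strand, encodes the partner of the common gamma chain. It had 42.1, 39.6 and 48.8 CPM in 2D, 91.2, 82.4 and 72.4 at day 7, and 43.5, 86.1 and 64.5 at day 14. Each day 7 sample was above 2D, while day 14 replicate 1 lay inside the 2D range. JAK3 rose at day 7 by a log2 fold change of 0.91 (SE 0.214, edgeR adjusted p = 0.00428). At day 14 the value was 0.57 (SE 0.213, edgeR adjusted p = 0.0516, between 0.00162 and 0.229 over the alternatives), and it was 0.79 without day 14 replicate 1, which passed, and 0.31 without day 14 replicate 2. It passed also with DESeq2 size factors (0.57), in DESeq2's Wald test (0.57), with the length trend removed (0.63) and with the replicate block and the trend removed (0.61).

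TYK2, at chr19:10350529-10380676 on the minus strand, encodes the kinase of the type I interferon, IL-12 and IL-10 receptors. It had 188, 202 and 228 CPM in 2D, 407, 361 and 366 at day 7, and 182, 304 and 203 at day 14. Day 7 was above both other groups, and day 14 overlapped 2D. TYK2 rose at day 7 by a log2 fold change of 0.88 (SE 0.184, edgeR adjusted p = 0.0022), and at day 14 the value was 0.16 (SE 0.182, edgeR adjusted p = 0.534). The day 14 value was 0.30 without day 14 replicate 1, -0.10 without day 14 replicate 2, 0.24 without day 14 replicate 3 and 0.06 without 2D replicate 1.

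Per exon length, in CPM per kilobase of exon (RPKM), the summed level of the 4 kinases was 87.2 ± 4.38 (SD, n = 3) in 2D, 190 ± 7.63 at day 7 and 136 ± 34.2 at day 14. JAK1 made up 41.9%, 42.2% and 36.2% of that sum in 2D, 47.8%, 49.7% and 51.7% at day 7, and 52.8%, 52.8% and 56.6% at day 14. TYK2 made up 47.2%, 48.2% and 51.8% in 2D, 42.7%, 40.9% and 40.3% at day 7, and 37.4%, 37.2% and 31.1% at day 14. The share of JAK1 was thus higher and that of TYK2 lower in each later group with no overlap, also in day 14 replicate 1, where the levels of both were the lowest of their group. JAK3 held 8.64% ± 0.687, 7.47% ± 0.711 and 8.17% ± 0.674, and JAK2 2.22% ± 0.490, 1.54% ± 0.122 and 2.55% ± 1.40.

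**Figure D2:**
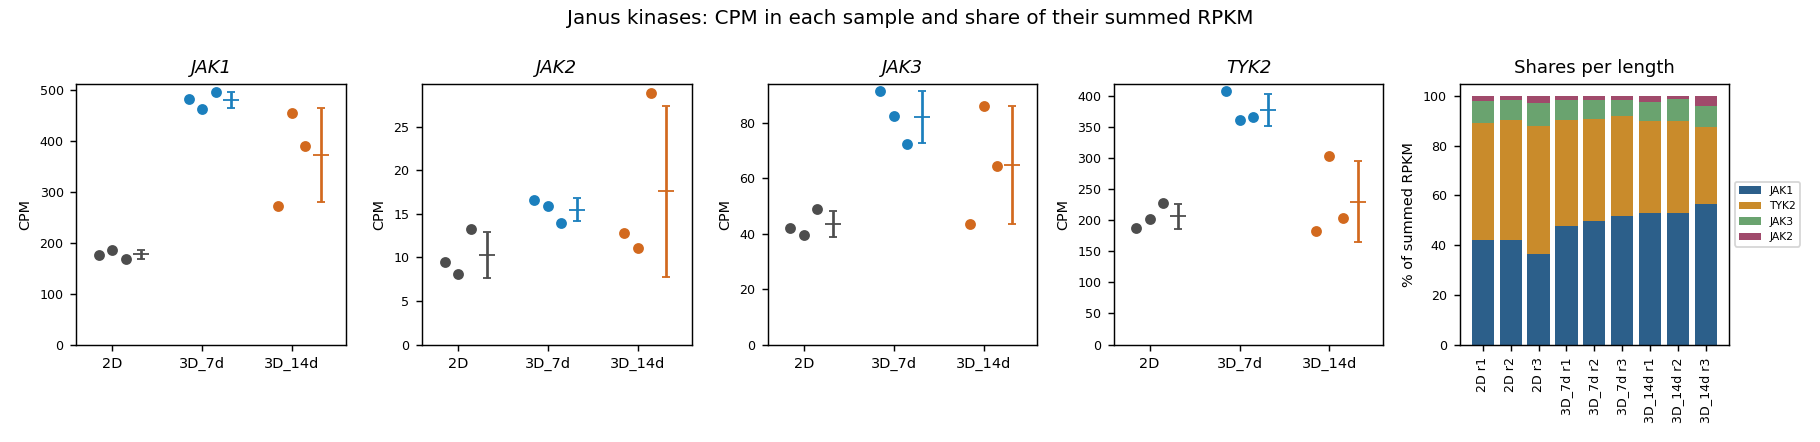
Level in CPM of the 4 Janus kinases in each sample (points, with a cross line at the group mean and a vertical line for the SD, n = 3) and the share of each in their summed RPKM. JAK1, JAK3 and TYK2 are highest at day 7, and the share of JAK1 goes from 40.1% in 2D to 49.7% and 54.1%.

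Levels can be compared between genes per exon length. In 2D the highest of the 42 were EBI3 (167 ± 13.1 RPKM), IL2RB (143 ± 6.65) and IFNGR2 (92.3 ± 11.4). At day 14 they were IL2RB (215 ± 67.0), EBI3 (90.9 ± 7.16) and IL16 (88.1 ± 15.5), with IL2RG (87.6 ± 12.9) about level with IL16. IL16 and IL2RG share 46% and 62.3% of their exon bases with other gene models, which bears on their levels per length. Within the IL-2 receptor, IL2RA was the scarcest chain in every group, at 0.636 ± 0.254, 2.15 ± 0.232 and 1.73 ± 0.988 RPKM, beside 51.1 ± 4.08, 72.4 ± 3.48 and 87.6 ± 12.9 for IL2RG. The IL-7 receptor had its alpha chain at 1.76 ± 0.235, 0.585 ± 0.0916 and 0.493 ± 0.122 RPKM. In the IL-6 receptor IL6R was at most 0.0660 RPKM on average, against 4.87 ± 0.736, 2.14 ± 0.296 and 3.04 ± 1.19 for IL6ST. For the IL-12 receptor IL12RB1 stood at 3.76 ± 0.167, 11.7 ± 2.17 and 11.2 ± 1.86 RPKM and its partner IL12RB2 at no more than 0.205 on average, while IL23R, the partner for IL-23, had 3.04 ± 0.1004, 5.51 ± 1.77 and 4.49 ± 0.792. The interferon gamma receptor had IFNGR2 above IFNGR1 in 2D (92.3 against 57.3 RPKM), about level with it at day 7 (36.2 against 36.9) and above it at day 14 (61.5 against 37.5). In the type I interferon receptor IFNAR1 (13.8 ± 0.508 RPKM in 2D) stood above IFNAR2 (1.21 ± 0.0476), and in the IL-10 receptor IL10RA (18.4 ± 1.34) stood above IL10RB (1.52 ± 0.257). Both of the scarcer chains have most of their exon bases in common with another gene model, as given with their values. Of the paired ligand chains, IL27, the partner of EBI3 in IL-27, had at most 10 counts in any sample. IL12B, the partner of both IL12A and IL23A, was under the testing limit with at most 73 counts, at 0, 0.0969 and 0 CPM in 2D, 0.0173, 0.0729 and 0.0569 at day 7, and 1.35, 0.323 and 1.11 at day 14. Every day 14 sample of IL12B was thus above all others, while the levels of IL12A and IL23A at day 14 were below 2D. For IL23A the lower level follows in part from the filter, as given with its values.

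**Figure D3:**
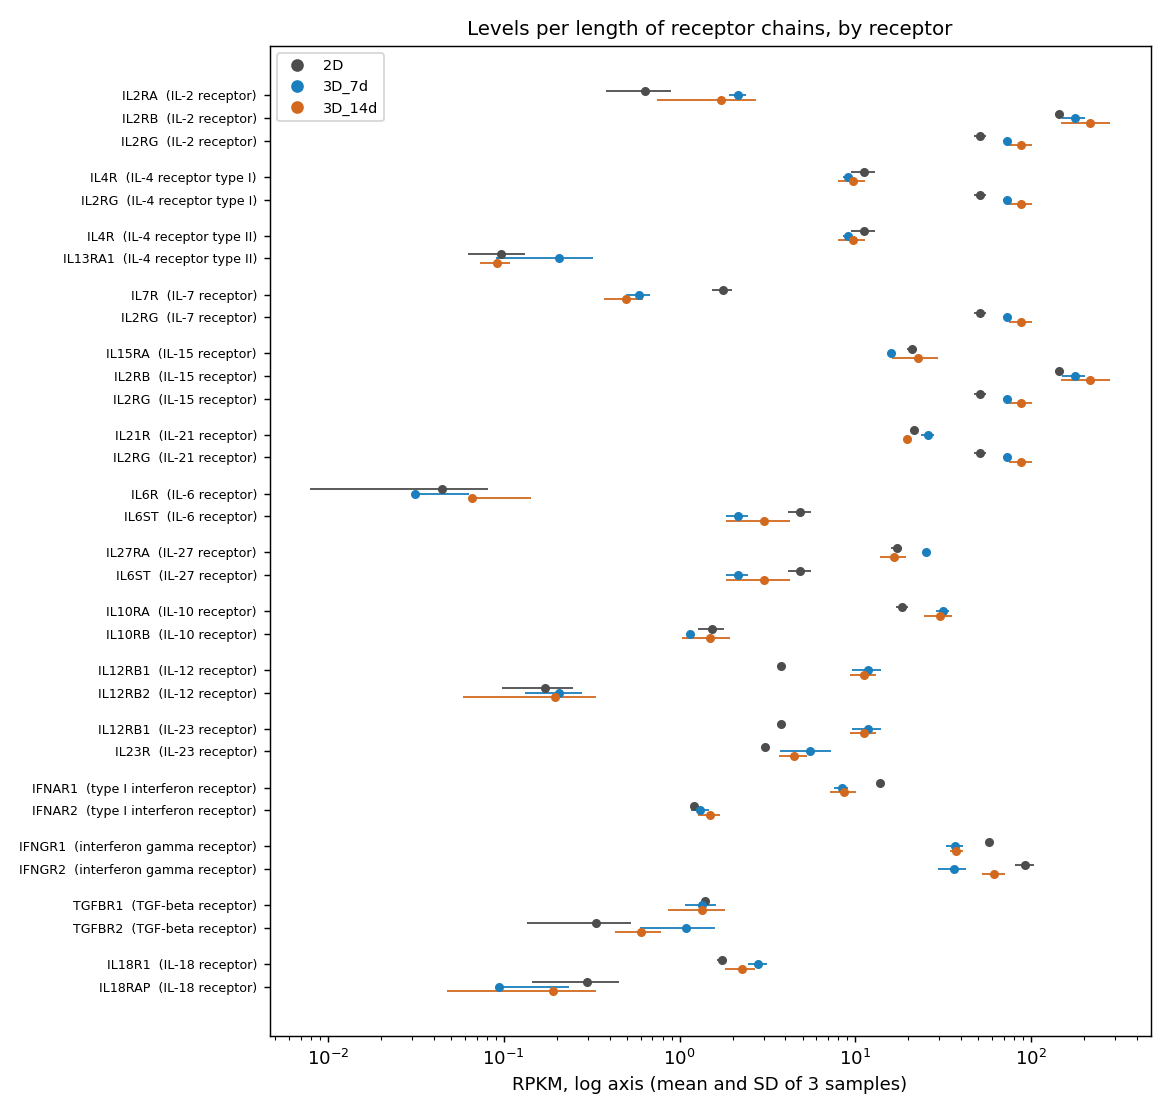
Mean RPKM with SD (n = 3) of the chains of each receptor in 2D, at day 7 and at day 14, on a log axis, with no lower bar where the SD reaches the mean. IL2RA, IL7R, IL6R and IL12RB2 lie under their partners in all 3 groups.

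From day 7 to day 14, the question is which levels went on changing inside the scaffold, where extraction was alike. IL10 rose by a log2 fold change of 0.77 (SE 0.218, edgeR adjusted p = 0.0196), a call that ended without day 7 replicate 1 (0.63), and the value was 0.55 without day 14 replicate 1. IFNGR2 rose by 0.77 (SE 0.171, edgeR adjusted p = 0.00647), with every day 14 sample above every day 7 sample. EPOR rose by 0.73 (SE 0.22, edgeR adjusted p = 0.0265), and that call ended without day 7 replicate 1 (0.59), day 7 replicate 2 (0.70) or day 14 replicate 2 (0.53), with no filter (0.69) and with only the 6 samples compared (0.75). For IFNGR2 and EPOR the day 14 levels thus lay nearer to 2D, and for IL10 farther from it.

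TYK2 fell between the days by -0.72 (SE 0.183, edgeR adjusted p = 0.0122) and IL27RA by -0.60 (SE 0.151, edgeR adjusted p = 0.0111). In both, all day 14 samples were below all day 7 samples and overlapped 2D. IL21R fell by -0.40 (SE 0.125, edgeR adjusted p = 0.0322), from 132 to 100 CPM, with no overlap. The IL21R call ended in 10 of 18 alternatives, namely without 2D replicate 1 (-0.38), 2D replicate 2 (-0.38), 2D replicate 3 (-0.38), day 7 replicate 2 (-0.31) or day 7 replicate 3 (-0.42), with no filter (-0.45), only the 6 samples compared (-0.37), the replicate block (-0.40), the length trend removed (-0.23) and both of these together (-0.23). The other 30 tested genes did not pass between the days, though leaving out 1 sample made some of them pass. JAK1 had -0.37 (SE 0.171, edgeR adjusted p = 0.125), with -0.53 without day 14 replicate 2, which passed, and -0.17 without day 14 replicate 1. JAK3 had -0.34, with -0.60 without day 14 replicate 2, which passed, and -0.11 without day 14 replicate 1. IL12A (-0.56) passed without day 14 replicate 2 (-0.73) and had -0.44 without day 14 replicate 3. IL7 (0.55) passed without day 7 replicate 1 (0.72) or day 14 replicate 1 (0.72) and had 0.35 without day 14 replicate 3. IL15 (0.53) passed without day 7 replicate 2 (0.82) and had 0.38 without day 7 replicate 1. IL2RB (0.29) and IL6ST (0.51) passed without day 14 replicate 1 (0.54 and 0.75) and had 0.13 and 0.16 without day 14 replicate 3. With all samples, IL7 (0.57) and IL24 (0.86) passed in DESeq2's Wald test. IL15 (0.65), IL12A (-0.78), CSF1 (0.43) and IL6ST (0.58) passed with the length trend removed. IL15 (0.68), IL12A (-0.81) and IL6ST (0.55) passed with the replicate block and the trend removed. With the settings used throughout, IL24 had 0.85 and CSF1 0.27.

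Among 52 other cytokine ligands 5 passed the testing limit. At day 7 OSM, a cytokine of the IL-6 family, rose (1.87, from 0.501 ± 0.260 to 1.82 ± 1.04 CPM) and IL32 fell (-0.57, from 491 ± 61.4 to 330 ± 15.4 CPM). The OSM call ended without 2D replicate 2 (1.45), 2D replicate 3 (1.93) or day 7 replicate 2 (1.31), it gave no value with only the 6 samples compared, where its counts were under the filter, and the call of IL32 ended without 2D replicate 1 (-0.51) or day 7 replicate 1 (-0.56). At day 14, 3 of the 5 rose: IL4, the ligand of IL4R (1.72, from 2.42 ± 0.319 to 7.94 ± 3.11 CPM), IL19, a relative of IL10 whose exons overlap it (2.37, from 0.331 ± 0.136 to 1.73 ± 0.199 CPM), and OSM (2.13), named at day 14 after its values were seen. IL19 and OSM were under 1 CPM in all 2D samples and passed the filter through the scaffold samples alone, so their rise and the count of 3 follow in part from the filter. The day 14 call of OSM ended without 2D replicate 2 (1.73) or day 14 replicate 1 (1.48). The number rising at day 7 was 2 without day 7 replicate 1 and with the length trend removed. At day 14, 5 rose and 1 fell with filterByExpr, and 1 fell with no filter, both of which test more genes. Over all genes 22.2% rose and 21.2% fell at day 7, and 19% and 17.2% at day 14, which also holds beside the counts of the next 3 lists.

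Of 12 other cytokine receptor genes tested out of 40, 4 rose and 2 fell at day 7, and 2 rose at day 14. LEPR, the leptin receptor, rose by log2 fold changes of 1.97 and 1.90, from 1.46 ± 0.121 CPM to 5.73 ± 2.32 and 5.43 ± 1.52. IFNLR1, a chain for type III interferons, rose by 2.34 and 2.15, from 1.87 ± 0.904 CPM to 9.46 ± 3.57 and 8.32 ± 3.59. IL23R (0.85) and IL18R1 (0.67), named after their values were seen, also rose at day 7. The IL23R call ended without 2D replicate 3 (0.78) or day 7 replicate 3 (0.55). That of IL18R1 ended without 2D replicate 1 (0.62), 2 (0.57) or 3 (0.67), without day 7 replicate 1 (0.57) or 2 (0.60), with total counts alone (0.51), no filter (0.67) and the replicate block with the length trend removed (0.53). IL11RA (-1.40) and SIGIRR (-1.001), a damper of IL-1 family receptors, fell at day 7. Without 2D replicate 3 the number rising at day 7 was 2, and 1 fell at day 14 without day 14 replicate 2 and with total counts alone.

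Of 26 STAT factors and feedback inhibitors tested out of 27, 7 rose and 3 fell at day 7, and 7 rose and 4 fell at day 14. PIAS2, an inhibitor of STAT factors, rose at day 7 by a log2 fold change of 0.90, from 31.5 ± 1.24 to 58.9 ± 3.52 CPM. PTPN6, the phosphatase SHP-1 that dampens cytokine receptors, rose by 0.97 at day 7 and 1.06 at day 14, from 1011 ± 58.4 CPM to 1983 ± 92.6 and 2104 ± 369. PIAS4, of the same family as PIAS2, rose at day 14 by 1.21. PTPN2, a phosphatase that acts on JAK1 and JAK3, fell at day 7 by -0.52 (the call ended with no filter, -0.53), and SOCS3, an inhibitor that STAT3 induces, by -1.17. The SOCS3 call ended without 2D replicate 1 (-1.04), 2D replicate 2 (-1.18), day 7 replicate 1 (-0.95) or day 7 replicate 3 (-1.22) and with no filter (-1.17). PTPN11, the phosphatase SHP-2, fell by -0.67 at day 14, and PTPRC, the CD45 phosphatase, by -0.74, a call that ended without 2D replicate 1 (-0.75), 2D replicate 2 (-0.75) or day 14 replicate 2 (-0.76) and with only the 6 samples compared (-0.76), and its value was -0.46 without day 14 replicate 1. Further genes are named after their values were seen. PTPN11 fell also at day 7 (-0.47), a call that ended without 2D replicate 1 (-0.46), 2 (-0.55) or 3 (-0.55), without day 7 replicate 2 (-0.38) or 3 (-0.52), with filterByExpr (-0.47), no filter (-0.48) and the replicate block (-0.48). At day 14 SOCS3 (-1.18) and PTPN2 (-0.36) fell too. The day 14 call of SOCS3 ended without 2D replicate 1 (-1.03), 2D replicate 2 (-1.17) or day 14 replicate 2 (-1.03), with no filter (-1.25) and the replicate block (-1.17). That of PTPN2 ended without 2D replicate 1 (-0.40), 2 (-0.40) or 3 (-0.38), with filterByExpr (-0.37), no filter (-0.42), only the 6 samples compared (-0.38), the replicate block (-0.36) and the block with the length trend removed (-0.32). The number falling at day 7 was 1 without 2D replicate 1, 2D replicate 2 or day 7 replicate 3 and 5 without day 14 replicate 1. With all samples it was 0 with no filter and 6 with only the 6 samples compared. At day 14 it was 1 without 2D replicate 1 or 2D replicate 2 and 2 without day 14 replicate 2, with no filter, with only the 6 samples compared and with the replicate block, and the number rising was 4 with total counts alone.

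Of 17 genes tested out of 21 for cytokine maturation and for adaptors, 2 rose and 5 fell at day 7, and 5 rose and 4 fell at day 14. MYD88, the adaptor of IL-1 and IL-18 receptors, rose at day 7 by 0.87, from 146 ± 16.2 to 267 ± 11.5 CPM, and FURIN, which cleaves the TGF-beta precursor, by 1.30 at day 7 and 1.64 at day 14. GSDMD, the pore protein through which IL-1 family cytokines leave cells, fell by -1.78 and -1.54, from 92.5 ± 3.41 CPM to 26.9 ± 4.59 and 31.8 ± 5.16. SMAD7, an inhibitor of TGF-beta receptors, fell by -1.52 at day 7, and SMAD3, which carries their signal, by -0.85 at day 14. PYCARD, the inflammasome adaptor, rose at day 14 by 1.55, from 13.2 ± 2.57 to 38.9 ± 12.2 CPM. Further genes are named after their values were seen. At day 7 SMAD3 (-1.002), IRS2 (-2.34) and SMAD4 (-0.63) fell, the last with a call that ended without 2D replicate 2 (-0.61). At day 14 CASP1, the protease that matures IL1B and IL18 products, rose by 1.07, from 19.1 ± 1.14 to 40.0 ± 10.2 CPM, as did MYD88 (0.64) and LTBP3 (0.73), while IRAK4 (-0.72) and SMAD7 (-0.65) fell. The MYD88 call ended without 2D replicate 1 (0.56) or 3 (0.57) and with total counts alone (0.45). That of LTBP3 ended without 2D replicate 1 (0.76), 2 (0.64) or 3 (0.68), without day 14 replicate 1 (0.49) or 2 (0.70) and with total counts alone (0.50). That of SMAD7 ended without 2D replicate 1 (-0.68) or 3 (-0.56), without day 14 replicate 2 (-0.54) or 3 (-0.67), with no filter (-0.71), the replicate block (-0.65) and the block with the length trend removed (-0.62). The number rising at day 14 was 3 without 2D replicate 1 or 2D replicate 3 and with total counts alone, and the number rising at day 7 was 5 with only the 6 samples compared.

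Promoter sequences, 250 bases before to 50 after the start, were at hand in RefSeq (GRCh38.p14) for 33 of the 42 genes, all but CSF1, CSF2RB, IFNAR2, IL15, IL17RA, IL18, IL2RB, IL7 and LIF. They are shown because Janus kinases act through STAT factors, whose paired half-sites read TTCNNNGAA, searched on both strands. That motif stood in 7.88% of all 27305 promoters and in 2 of the 33, IL10RB and IL1B. A further pair of motifs was searched after the values were seen. A form of the interferon response element, GAAA, any 2 bases and GAAA, stood in 3.65% of all promoters and in IL12A and IL24. A form of the NF-kB site, GGG, any 2 bases and TTTCC, stood in 1.92% of all promoters and in 5 of the 33 (IFNGR2, IL27RA, IL4R, IL6 and JAK3). A match describes letters and not a site in use. Some promoters lie away from the start of the counted gene. That of JAK1 is at chr1:65067697-65067996, where the minus strand gene reaches 64966549. That of IL21R is at chr16:27427021-27427320, where the plus strand gene starts at 27402174. The windows of 6 genes follow 5' to 3' on the gene's strand with the motif, or its reverse complement, in capitals. They come from chr21:33266368-33266396 (plus strand, IL10RB), chr2:112836941-112836969 (minus, IL1B), chr3:159988826-159988855 (plus, IL12A), chr21:33403304-33403333 (plus, IFNGR2), chr19:14031684-14031713 (plus, IL27RA) and chr19:17847993-17848022 (minus, JAK3).
IL10RB: tctccgctggTTCCCGGAAgccgccgcgg
IL1B: ctccttgcccTTCCATGAAccagagaatt
IL12A: actgcgaacaTTTCGCTTTCattttgggcc
IFNGR2: tcccggagcgGGAAAGTCCCgcgcgggggc
IL27RA: gccccagccgGGGACTTTCCgtcgcgggga
JAK3: ggagccgagtGGGACTTTCCtctcgctgcc
Of the last 3, which share the NF-kB form, IL27RA and JAK3 rose at day 7 and IFNGR2 fell. IL4R, which also has the form, passed at neither time with the settings used throughout, and IL6 was at the floor. A link between the form and these changes was not tested.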

How the data were processed

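The values are the raw counts per gene that the authors deposited, made with Trimmomatic 0.39, STAR 2.5.3a (GRCh38) and featureCounts 1.6.4. The strand setting and the treatment of reads with several alignments or genes are not stated in the sources used. In R 4.3.3, edgeR 4.0.16 was used with TMM scaling, a filter of more than 1 CPM in at least 3 samples, 1 quasi-likelihood fit of all 9 samples, and Benjamini-Hochberg adjustment over all 13463 genes (threshold 0.05). CPM and RPKM are TMM-scaled, and RPKM uses the exon length given with the counts.

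Members and lists were chosen with earlier results of these data known. Members called in any comparison with at least a doubling or halving (1 on the log2 scale), and the Janus kinases, are given by sample, other tested members by means and fold changes, and the rest by counts. From each other list, the 2 genes with the smallest p in each direction among those called against 2D are named, and all where 5 or fewer were called.

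Alternatives were DESeq2 1.42.0 size factors, its Wald test, total counts alone, filterByExpr, no filter, only the 6 samples compared, a replicate block, a length trend removed (limma 3.58.1), both together, each sample left out, and a minimum change of 1 on the log2 scale. For the genes of the other lists they were added after the data were seen. Promoters come from RefSeq GRCh38.p14. Protein motifs were not analysed here.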

Additional observations from a re-analysis of the deposited data

Results flagged for a closer look

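In 6 of the 36 genes tested the levels in scaffolds at the 2 times differed from each other, by the test of day 14 against day 7 in edgeR. Of all genes tested, 28.1% were called in that comparison. The log2 fold change was 0.77 for IL10 (edgeR adjusted p = 0.0196), higher in 3 of 3 day 14 samples than in any day 7 sample. For IFNGR2 it was 0.77 (edgeR adjusted p = 0.00647) and for EPOR 0.73 (edgeR adjusted p = 0.0265), both again with no overlap. TYK2 (-0.72, edgeR adjusted p = 0.0122), IL27RA (-0.60, edgeR adjusted p = 0.0111) and IL21R (-0.40, edgeR adjusted p = 0.0322) were lower in all 3 day 14 samples than in any day 7 sample. The call of IL10 ended without day 7 replicate 1 (0.63), that of EPOR without day 7 replicate 1 (0.59), day 7 replicate 2 (0.70) or day 14 replicate 2 (0.53), and that of IL21R without any 2D replicate (-0.38 each), day 7 replicate 2 (-0.31) or day 7 replicate 3 (-0.42). Both the EPOR call (0.69 and 0.75) and the IL21R call (-0.45 and -0.37) ended with no filter and with only the 6 samples compared. IL21R lost its call also with the replicate block (-0.40), the length trend removed (-0.23) and both together (-0.23), and it passed against 2D at neither time.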

How the results depend on the processing

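Of 46 called changes of members, 32 kept their call in each of the 18 alternatives of scaling, filter, test, block, trend and samples and 14 lost it in at least 1, with 0 reversed. Over these alternatives a call was kept 753 times and lost 75 times. Among uncalled changes 1009 kept direction and side, 47 passed the threshold and 59 took the other sign, in 19 results. The cause was not tested.

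With a minimum log2 change of 1, the members up and down were 6 and 5 at day 7, 5 and 2 at day 14, and 0 and 0 between the days (genes called 2755, 2172 and 1456). Between the days, 5 members rose with DESeq2's Wald test, 6 with the length trend removed and 5 with block and trend removed, and 2478 genes were called with only the 6 samples compared. Leaving out samples, members down at day 14 numbered 5 to 8, members up and down between the days 2 to 6 each, and genes called 3204 to 5308 at day 14 and 2291 to 4328 between the days.

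Uncalled log2 fold changes that took the other sign are given by alternative. With total counts alone, IL15 was -0.033, CSF2RB -0.10, IL1RAP -0.0018 and IFNAR2 -0.037 at day 7, TYK2 -0.050 at day 14, and IFNAR1 -0.0057 and IFNGR1 -0.019 between the days. With the length trend removed, CSF2RB was -0.076 and IFNAR2 -0.022 at day 7, CSF1 0.025 and TGFBR1 0.015 at day 14, and IL12RB1 0.064, TGFBR1 0.12 and IL10RA 0.054 between the days. With block and trend removed, these were -0.11 and -0.025, 0.022 and 0.0040, and 0.063, 0.11 and 0.051. Between the days TGFBR1 was 0.013 with DESeq2 size factors, 0.013 with its Wald test and 0.020 with only the 6 samples compared, and with no filter IFNAR1 was -0.011 and IFNGR1 -0.028.

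Leaving out samples gave ranges at day 7 of -0.18 to 0.26 for IL15, -0.053 to 0.22 for TGFB1, -0.34 to 0.22 for CSF2RB and -0.21 to 0.050 for TGFBR1. At day 14 they were -0.13 to 0.061 for CSF1, -0.19 to 0.055 for IL27RA, -0.21 to 0.22 for TGFBR1, -0.30 to 0.10 for IL10RB and -0.10 to 0.30 for TYK2. Between the days they were -0.64 to 0.11 for IL2RA, -0.0042 to 0.25 for IL4R, -0.14 to 0.10 for IL12RB1, -0.16 to 0.29 for TGFBR1, -0.21 to 0.071 for IL10RA, -0.087 to 0.17 for IFNAR1, -0.068 to 0.092 for IFNGR1 and -0.37 to 0.43 for JAK2. IL23A gave no value between the days with only the 6 samples compared, since its counts there fell under the filter.

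Replicate numbers did not act as pairs: deviations of same-numbered samples from their group means correlated at r from -0.10 to 0.185 across genes, which are not independent replicates, and the best match had the same number in 6 of 18 cases. Depth limits IL6 and LIF, which were at the floor of 3 counts.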
